A study of Mus musculus with 16 samples.

Results

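The 37 genes described here are interferon-stimulated genes, chosen as a fixed list of names and read from arrays of mouse colon RNA. All 37 were measured, among 36711 genes in all, by 63 probes on each array. They are Irf1, Irf7, Irf9 and Stat2 (transcription factors), Ifih1, Ddx58, Dhx58, Zbp1 and Eif2ak2 (sensors of foreign nucleic acid), Oas1a, Oas1g, Oas2, Oas3, Oasl1 and Oasl2 (oligoadenylate synthetases), Ifit1, Ifit2, Ifit3, Mx1, Mx2, Rsad2, Isg20, Bst2, Rtp4, Ifi44 and Ifi35 (antiviral effectors), Isg15, Usp18, Trim25 and Parp14 (the Isg15 system and other modifiers), Gbp2, Gbp3, Igtp and Irgm1 (interferon-inducible GTPases), and Psmb8, Psmb9 and Tap1 (antigen processing).

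Type I and type III interferons signal through a complex that holds Stat2 and Irf9 and binds the interferon-stimulated response element (ISRE) of target promoters. Interferon gamma acts through the gamma-activated site (GAS) and drives Irf1, the GTPases and the genes of antigen processing most strongly. In the intestine a low level of this program is kept up by resident microbes in the absence of infection, and epithelial cells respond above all to type III interferon.

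The samples were colons of 16 pups at weaning from RjOrl:SWISS mice, an outbred stock without engineered alleles or drug treatment, kept free of specific pathogens. CSD (C-section delivery) pups were taken by hysterectomy at the end of gestation and nursed by foster mothers that had delivered vaginally, and VD (vaginal delivery) pups were nursed by a dam other than their own because litters were exchanged between VD mothers. There were 8 CSD pups, 4 of mother 3 and 4 of mother 4 with 2 females and 2 males in each litter, and 8 VD pups, 5 of mother 5 (2 females and 3 males) and 3 males of mother 6. Each array held RNA of 1 pup, each of the 2 slides held 4 CSD and 4 VD pups, and each mother gave pups to 1 group, so that delivery mode and litter of birth cannot be fully told apart. The question was whether delivery mode goes with a different expression of these genes in the colon. Of 12 markers of colon epithelium, 12 were above background on at least 8 arrays. Of 12 markers of small intestine epithelium 7 were, and 5 were above background on 0 arrays. Between 58.7% and 64.9% of the spots of an array lay well above background and 0 were saturated. The number of arrays limits the precision. Whole colon was measured, in which fewer cells of a type and less RNA per cell cannot be told apart. Values are log2 intensities after background correction and quantile normalization, on which a difference of 1 is a doubling, and they are compared only within a gene. Of the 37 genes, 36 had a probe well above background on all 16 arrays. The exception was Oas3, whose only probe was well above background on 4 CSD and 3 VD arrays.

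Most differences between the delivery modes were small in size in these genes. In the limma model with sex as a fixed and mother as a random effect, 0 of the 37 genes passed an adjusted p of 0.05, against 460 of 36711 genes in all (1.25%). Unadjusted p was under 0.05 for 9 of them (24.3%), 7 higher and 2 lower in CSD pups, against 14.5% of all genes. The estimate was higher in CSD pups for 26 genes and lower for 11. Its median was 0.056 on the log2 scale, against 0.003 over all genes. A log2 fold change under 0.2 in size was seen for 24 of them, and above 0.5 for 2, Isg15 and Ifit1. For Dhx58, Ifi44, Oas2 and Psmb9 the value averages in a probe above background on 0 arrays, which can make the estimate smaller. CSD and VD values overlapped for all 37 genes, and only 0.493% of all genes had groups that did not overlap. With shares this low over all genes, 0 of 37 genes called or not overlapping does not set these genes apart. The litters of both CSD mothers averaged above, or both below, the litters of both VD mothers for 13 genes (35.1%), against 42% of all genes.

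**Figure D1:**
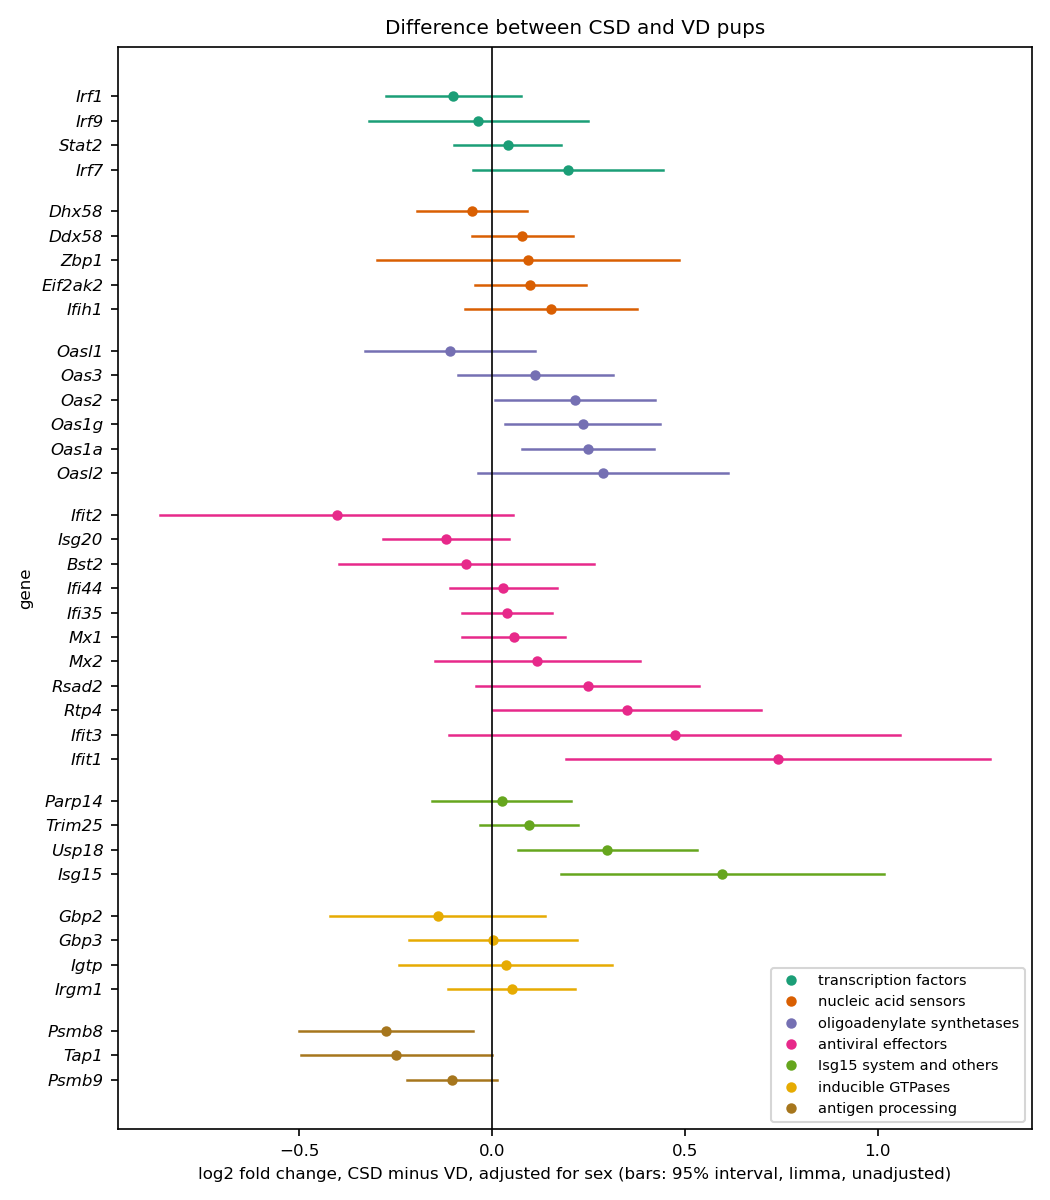
Log2 fold change between CSD and VD pups (x axis, CSD minus VD, adjusted for sex) for the 37 genes (y axis, grouped by role); points are limma estimates and bars their 95% intervals, not adjusted for the number of genes. Estimates of the oligoadenylate synthetases other than Oasl1, and of Isg15 and Usp18, lie above 0, and the 3 antigen processing genes lie below 0.

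By role, with no test between the groups, the estimates ran as follows. The Isg15 system and the oligoadenylate synthetases leaned towards CSD pups, with median log2 fold changes of 0.197 (4 genes) and 0.224 (6 genes). The antiviral effectors were split, with 8 of 11 higher and 3 lower and a median of 0.056. Sensors (4 of 5 higher, median 0.093), transcription factors (2 of 4 higher, median 0.001) and GTPases (3 of 4 higher, median 0.019) differed little, and 0 genes of these 3 groups had an unadjusted p under 0.05. Such a p was seen for 3 of 6 oligoadenylate synthetases, 2 of 4 genes of the Isg15 system, 2 of 11 effectors and 2 of 3 antigen processing genes, against 14.5% of all genes. Antigen processing leaned towards VD pups, with 3 of 3 genes lower in CSD pups and a median of -0.249.

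Isg15 encodes a ubiquitin-like protein that is joined to other proteins after interferon signalling, and Usp18 is the protease that removes it and also restrains the type I receptor. Isg15 (probe at chr4:155573649-155573708, mm9) lay at 11.36, 12.22 and 12.81 in CSD pups (lowest, median and highest) and at 11.24, 11.53 and 12.15 in VD pups. In 5 of 8 CSD pups it was above every VD pup, and the other CSD pups, all females, lay within the VD range. The log2 fold change was 0.60 ± 0.20 (SE, n = 8 and 8, 95% interval 0.18 to 1.02, 1.51-fold), with an adjusted p of 0.153 in limma and p = 0.0591 in a two-sided exact permutation test of the means, which takes neither sex nor litter into account. Usp18 (chr6:121220874-121220933, mm9) lay at 7.14, 7.73 and 8.002 in CSD pups and at 7.23, 7.41 and 7.97 in VD pups. The groups overlapped over nearly their whole range, since CSD pup 2 was the lowest of all pups. For Usp18 the log2 fold change was 0.30 ± 0.11, with an adjusted p of 0.197 in limma and p = 0.111 in the exact permutation test. Trim25, a ubiquitin ligase that activates Rig-I and also takes part in Isg15 conjugation, was at 12.19 ± 0.14 in CSD and 12.11 ± 0.10 in VD pups (SD, n = 8 each). Its 3 probes disagreed, with CSD minus VD differences of 0.228, 0.065 and -0.075.

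Oligoadenylate synthetases that sense double-stranded RNA make the second messenger that activates RNase L. Oasl1 lacks this activity and holds back the translation of Irf7. Oas1a (chr5:121346735-121346794, mm9) had the smallest p of the 37 genes. It lay at 13.92, 13.97 and 14.38 in CSD pups and at 13.64, 13.78 and 14.14 in VD pups. All 8 CSD pups were above the VD median, and the overlap came from 1 VD pup, the female VD pup 4 at 14.14, since the next VD pup stood at 13.82, below every CSD pup. The log2 fold change of Oas1a was 0.25 ± 0.08 (1.19-fold, 95% interval 0.08 to 0.42), with an adjusted p of 0.145 in limma and p = 0.00653 in the exact permutation test. Oas1g (chr5:121332000-121332059, mm9) lay at 8.61, 8.75 and 9.13 in CSD pups and at 8.23, 8.57 and 8.86 in VD pups. VD pup 4 was again the highest VD pup, and 3 CSD pups were above it. The log2 fold change of Oas1g was 0.23 ± 0.10, with an adjusted p of 0.253 in limma and p = 0.0252 in the exact permutation test. Oas1f, a further gene of this cluster outside the 37, had a log2 fold change of 0.26 (adjusted p of 0.127 in limma, 0.0442 without VD pup 4 and up to 0.703 over all alternatives). Other Oas1 genes outside the 37 did not lean this way. The log2 fold change was 0.005 for Oas1b (adjusted p of 0.968 in limma) and -0.097 for Oas1c (adjusted p of 0.345). Oas1d was at 7.74 ± 0.09 in CSD and 7.78 ± 0.10 in VD pups (SD, n = 8 each). Oas1a, Oas1g and Oas1f are close paralogs, so that their probes may share signal and their estimates are not independent.

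Oas2 lay at 6.94, 7.22 and 7.38 in CSD pups and at 6.55, 7.08 and 7.43 in VD pups, with a log2 fold change of 0.21 (adjusted p of 0.323 in limma). It is the mean of a probe that was above background on 0 arrays and one that was above it on all 16, and the second alone was 0.36 higher in CSD pups. Oasl2 lay at 10.05, 10.60 and 10.90 in CSD pups and at 9.74, 10.33 and 10.74 in VD pups, with a log2 fold change of 0.29 (adjusted p of 0.417 in limma). Both genes overlapped broadly between the groups. Oasl1 pointed the other way, at 10.71 ± 0.25 in CSD and 10.86 ± 0.20 in VD pups.

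Promoter letters are shown for Ifit3 and for 5 of the 6 genes with the smallest p, without Usp18, which had no window. The ISRE is a site through which interferon-stimulated genes are known to respond together, and for Psmb8 the GAS is shown instead. RefSeq windows of 250 bases before to 50 after the start (GRCm38.p6) were at hand for 29 of the 37 genes. A core ISRE, GAAANNGAAA on either strand, occurred in 16 of these 29 genes (55.2%), against 3.99% of 27025 genes with a window. The GAS, TTCNNNGAA, which reads alike on both strands, occurred in 9 of 29 genes (31%), against 9.55% of all genes. Matches of the core may overlap each other, and a match is a description of the letters and not of binding. Capitals mark the matches in the stretches that follow, all read 5′ to 3′ along the gene's own strand. The first match began 78 bases before the start in Isg15 (minus strand, chr4:156200850-156200921), 104 in Ifit1 (plus strand, chr19:34640760-34640838), 156 in Ifit3 (plus strand, chr19:34583348-34583441), 20 in Oas1a (minus strand, chr5:120907526-120907570) and 18 in Oas1g (minus strand, chr5:120887614-120887656). For Psmb8 (plus strand, chr17:34198073-34198131), with 0 core ISRE matches, the capitals mark a GAS that began 97 bases before the start. Oas1a also held 1 GAS match, which lies outside the stretch shown, and Isg15, Ifit1, Ifit3 and Oas1g held 0. Psmb9 and Tap1, the other antigen processing genes, held 0 matches of either motif in their windows.
Isg15: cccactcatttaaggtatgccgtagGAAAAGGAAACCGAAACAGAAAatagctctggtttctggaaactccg
Ifit1: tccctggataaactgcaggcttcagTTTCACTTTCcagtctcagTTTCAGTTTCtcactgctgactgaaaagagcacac
Ifit3: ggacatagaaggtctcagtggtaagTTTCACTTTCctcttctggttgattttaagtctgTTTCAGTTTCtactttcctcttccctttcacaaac
Oas1a: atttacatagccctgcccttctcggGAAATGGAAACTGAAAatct
Oas1g: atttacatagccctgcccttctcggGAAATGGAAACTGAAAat
Psmb8: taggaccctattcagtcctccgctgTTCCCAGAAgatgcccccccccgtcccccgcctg

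In Isg15 3 overlapping core matches formed 1 run. Ifit1 and Ifit3 each held a pair of separate matches on the opposite strand. The stretches of Oas1a and Oas1g had the same letters over the whole length they share.

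**Figure D2:**
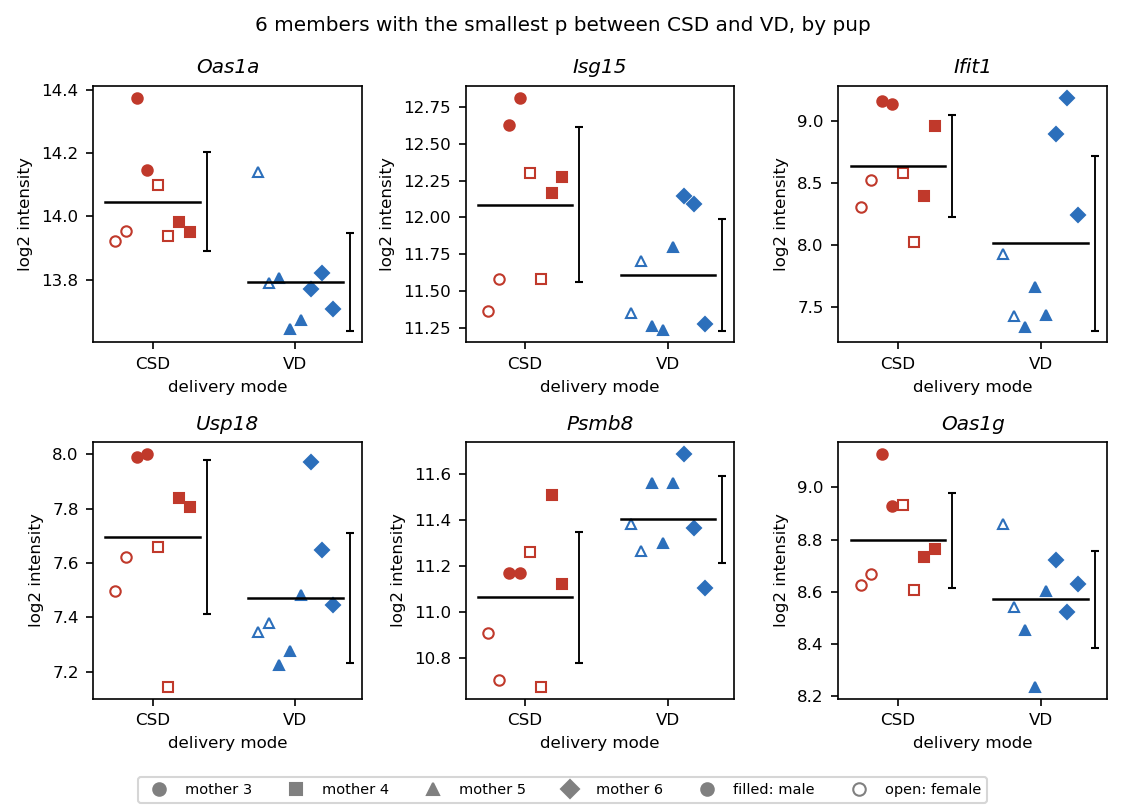
Log2 intensity (y axis) of the 6 genes with the smallest p between delivery modes, by pup (CSD in red, VD in blue); the shape gives the biological mother, filled symbols are males and open symbols females, the lines are means and the bars 1 SD (n = 8 each). CSD males lie high for Isg15 and Usp18, and the VD pups of mother 6 lie apart from those of mother 5 for Ifit1.

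The Ifit proteins bind viral RNA that lacks the marks of host messenger RNA and block its translation. The 3 genes are neighbours on chromosome 19, with probes at chr19:34650244-34650303 (Ifit2), chr19:34663105-34663164 (Ifit3) and chr19:34723827-34723886 (Ifit1) in mm9. They had the widest range over pups of the 37 genes, 2.21 for Ifit3, 1.85 for Ifit1 and 1.81 for Ifit2. Ifit1 lay at 8.02, 8.56 and 9.16 in CSD pups and at 7.34, 7.79 and 9.19 in VD pups. All 8 CSD pups were above the VD median, but the highest pup of all was a VD pup. The log2 fold change of Ifit1 was 0.74 ± 0.26 (1.67-fold, 95% interval 0.19 to 1.29), with an adjusted p of 0.175 in limma and p = 0.0503 in the exact permutation test. This interval treats pups of a litter as nearly independent. Litter means of Ifit1 were 8.785 and 8.492 for CSD mothers 3 and 4 and 7.557 and 8.777 for VD mothers 5 and 6. Ifit3 lay at 8.21, 8.56 and 9.18 in CSD pups and at 7.18, 8.15 and 9.39 in VD pups, with a log2 fold change of 0.47 (adjusted p of 0.465 in limma). The CSD range of Ifit3 thus fell wholly inside the VD range. Ifit2 lay at 7.31, 7.65 and 8.49 in CSD pups and at 7.51, 8.13 and 9.12 in VD pups, with a log2 fold change of -0.40 (adjusted p of 0.419 in limma).

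Within the VD group the litters of mothers 5 and 6 lay apart for the 3 Ifit genes. Ifit1 averaged 7.56 in the pups of mother 5 and 8.78 in those of mother 6, and the 3 pups of mother 6 were above every pup of mother 5. Ifit3 averaged 7.78 and 9.14, again without overlap between the litters. Ifit2 went the other way, with 8.46 in pups of mother 5 and 7.73 in pups of mother 6. In the limma contrast of VD litters (mother 6 minus mother 5, adjusted for sex), Ifit3 was the 1 gene of the 37 to pass, with a log2 difference of 1.23 ± 0.25 (SE) and an adjusted p of 0.0337, against 0.874% of all genes. Ifit1 had a difference of 1.11 ± 0.25 (adjusted p of 0.0609) and Ifit2 one of -0.86 ± 0.22 (adjusted p of 0.0976). Of the 37 genes, 5 were higher and 2 lower in pups of mother 6 at an unadjusted p under 0.05, where 11.5% of all genes had such a p. The call of Ifit3 rested on few pups, since its adjusted p was 0.122 without VD pup 6, 0.112 without pup 7, 0.0718 without pup 8, 0.0628 without pup 9, 0.0671 without pup 10 and 0.0704 without pup 11, with a log2 difference of 1.06 to 1.39. For Ifit1, Ifit2 and Ifit3 the estimated difference between these litters was larger in size than that between delivery modes. Ifit3b, a close copy of Ifit3 outside the 37 genes, differed by 0.19 (adjusted p of 0.777). Between the CSD litters (mother 4 minus mother 3), 0 of the 37 genes passed in limma, against 0.0872% of all genes, and 4 had an unadjusted p under 0.05, where 7.69% of all genes did. The smallest p were those of Ifih1, the sensor Mda5, with a log2 difference of -0.33 (adjusted p of 0.474), and of Tap1, with 0.32 (adjusted p of 0.604).

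**Figure D3:**
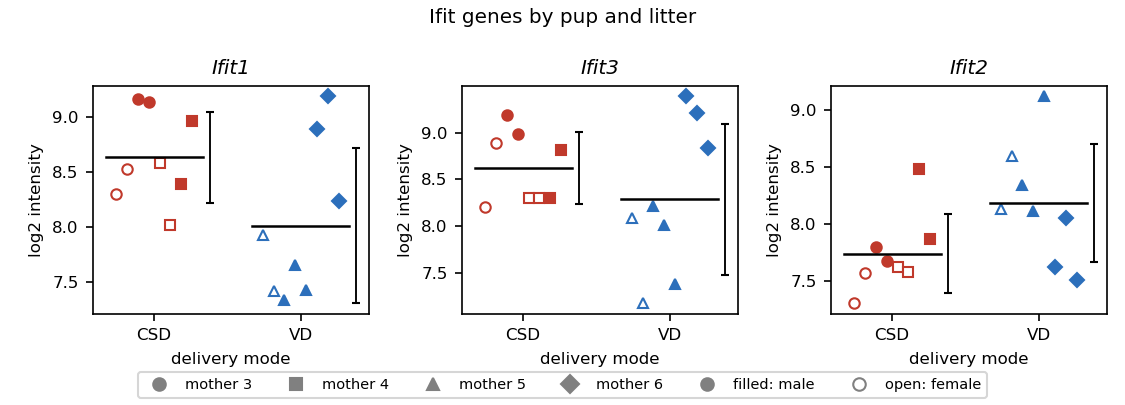
Log2 intensity (y axis) of Ifit1, Ifit3 and Ifit2 by pup and delivery mode; the shape gives the biological mother, filled symbols are males and open symbols females, lines are means and bars 1 SD (n = 8 each). The 3 VD pups of mother 6 lie above those of mother 5 for Ifit1 and Ifit3 and below them for Ifit2, beside the CSD pups.

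Without the litter of mother 6, 6 of the 37 genes passed between CSD pups and the VD pups of mother 5, against 6.17% of all genes, which rose from 460 to 2265 calls. Ifit1 (log2 fold change 1.11, adjusted p of 0.00298), Ifit3 (0.88, 0.0144), Usp18 (0.38, 0.03), Isg15 (0.66, 0.045) and Oas2 (0.30, 0.0454) were higher in CSD pups and Ifit2 (-0.69, 0.0226) was lower. Over all 38 alternatives the adjusted p reached 0.846 for Ifit1, 0.94 for Ifit3, 0.733 for Usp18, 0.683 for Isg15, 0.761 for Oas2 and 0.903 for Ifit2. Here delivery mode was compared with 1 VD litter, so that it and that litter cannot be told apart. Without the litter of mother 5, 0 of the 37 genes passed (0.523% of all genes did), 5 had an unadjusted p under 0.05 (13.5%, against 12% of all genes), Ifit2 was 0.23 higher in CSD pups, Ifit3 differed by -0.32 and the log2 fold change of Ifit1 was 0.14 (adjusted p of 0.846) in place of 0.74.

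Among the other effectors, Rtp4, a chaperone of membrane receptors with antiviral activity, lay at 10.64, 11.36 and 11.86 in CSD pups and at 10.43, 11.13 and 11.45 in VD pups. In 4 of 8 CSD pups Rtp4 was above every VD pup, and these 4 were the CSD males. The estimate for Rtp4 was a log2 fold change of 0.35 ± 0.16, with an adjusted p of 0.34 in limma. Ifi35, which acts in the regulation of innate immune signalling, was at 11.33 ± 0.13 in CSD and 11.32 ± 0.11 in VD pups (SD, n = 8 each). The GTPases Mx1 and Mx2, which block viral nucleocapsids, had log2 fold changes of 0.06 and 0.12.

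Psmb8 and Psmb9 are catalytic subunits of the immunoproteasome, and Tap1 is part of the transporter that carries peptides to MHC class I. Their genes lie together on chromosome 17. Psmb8 (chr17:34337771-34337830, mm9) lay at 10.68, 11.15 and 11.51 in CSD pups and at 11.11, 11.37 and 11.69 in VD pups. In 7 of 8 CSD pups it was below the VD median, and in 3, all females, below every VD pup. The log2 fold change of Psmb8 was -0.28 ± 0.11 (0.826-fold, 95% interval -0.50 to -0.05), with an adjusted p of 0.225 in limma and p = 0.0157 in the exact permutation test. Tap1 lay at 8.23, 8.73 and 9.07 in CSD pups and at 8.68, 9.03 and 9.17 in VD pups, with a log2 fold change of -0.25 (adjusted p of 0.342). In 4 CSD pups it was below every VD pup, and both of its probes were lower in CSD pups, by 0.26 and 0.37. Psmb9 lay at 8.61, 8.74 and 8.89 in CSD pups and at 8.66, 8.88 and 8.99 in VD pups, with a log2 fold change of -0.10 (adjusted p of 0.403). It is the mean of a probe above background on 0 arrays and one above it on all 16, and the second alone was 0.26 lower in CSD pups. Without the litter of mother 5 the log2 fold changes of Psmb8, Psmb9 and Tap1 were -0.14, -0.05 and -0.09, and among males alone -0.19, -0.05 and -0.15 (lowest adjusted p of 0.692 in limma).

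The estimates of T and B cell markers leaned the same way as those of the antigen processing genes. Of 10 T cell markers measured, 10 were lower in CSD pups, 5 of them with an unadjusted p under 0.05, and 9 of 9 B cell markers were lower, 5 of them with such a p, against 14.5% of all genes with such a p in either direction. In limma 0 of either list passed, against 1.25% of all genes. The mean log2 intensity of the T cell list was 7.92 ± 0.33 in CSD pups (7.495 to 8.406) and 8.40 ± 0.44 in VD pups (7.98 to 9.34, SD, n = 8 each), and that of the B cell list was 7.83 ± 0.35 (7.36 to 8.35) and 8.29 ± 0.33 (7.84 to 8.71). The mean of the antigen processing genes was 9.49 ± 0.23 (9.22 to 9.82) and 9.75 ± 0.15 (9.48 to 9.95). Cd2, on T cells, had a log2 fold change of -0.77 (adjusted p of 0.162). All T cell markers and 8 of 9 B cell markers were above background on at least 8 arrays. The part of these cells in the result for Psmb8, Psmb9 and Tap1 was not tested. The lists of plasma cells (5 of 7 lower, 4 with an unadjusted p under 0.05, median log2 fold change -0.573), dendritic cells (7 of 8 lower, 3 with such a p), plasmacytoid dendritic cells (7 of 7 lower, 3 with such a p) and macrophages (9 of 12 lower, 3 with such a p) also leaned towards VD pups. Markers of NK cells and cytotoxic lymphocytes (7 of 9 lower, median -0.02) and of neutrophils (7 of 8 lower, median -0.059) had 0 genes with such a p. Lists outside the immune system leaned towards VD pups too, namely endothelium (5 of 6 lower, 2 with such a p), smooth muscle (6 of 7 lower, 1 with such a p) and housekeeping genes (7 of 10 lower, 3 with such a p, median -0.014), whereas colon epithelium leaned towards CSD pups (9 of 12 higher, 3 with such a p), as Isg15 and Oas1a did. Their part was likewise not tested.

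The transcription factors were closer between the groups. Irf7, which amplifies the type I response, lay at 10.64, 11.01 and 11.54 in CSD pups and at 10.67, 10.90 and 11.27 in VD pups, with a log2 fold change of 0.20 (adjusted p of 0.475 in limma). The SD of Irf7 was 0.35 in CSD and 0.19 in VD pups. Irf1, a main target of interferon gamma, lay at 11.16, 11.42 and 11.54 in CSD pups and at 11.20, 11.48 and 11.77 in VD pups. Irf9 stood at 11.21 in VD pups 7 and 9, from different litters, and between 10.26 and 10.63 in the other 14 pups. Among the sensors, Eif2ak2, the kinase PKR that halts translation on double-stranded RNA, was at 10.15 ± 0.15 in CSD and 10.07 ± 0.12 in VD pups, and Zbp1, a sensor of Z-form nucleic acid, at 9.43 ± 0.42 and 9.42 ± 0.40. The 4 probes of Ddx58, the sensor Rig-I, disagreed, with CSD minus VD differences of 0.33, 0.13, 0.00 and -0.10. Of the GTPases, which act on vacuoles that hold pathogens, Gbp2 was at 10.98 ± 0.34 and 11.16 ± 0.17, and Igtp at 10.26 ± 0.42 and 10.33 ± 0.21 (SD, n = 8 each).

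**Figure D4:**
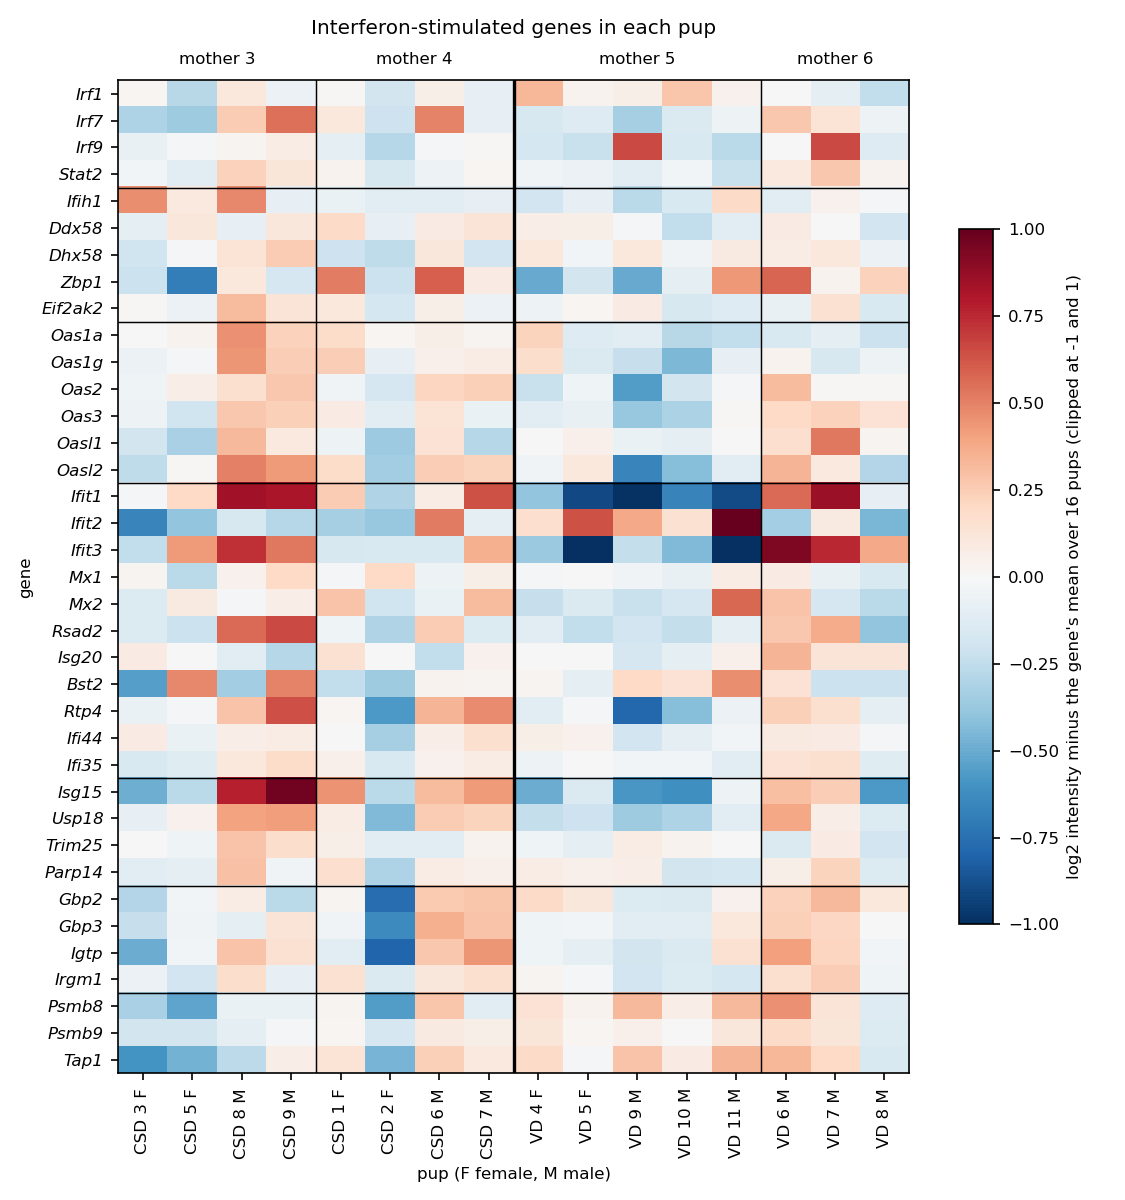
Log2 intensity minus the gene's mean over the 16 pups (colour, clipped at -1 and 1) for the 37 genes (rows, grouped by role) in each pup (columns, grouped by mother, F female and M male). Many genes are high together in CSD males 8 and 9 and VD males 6 and 7 and low together in CSD female 2.

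The estimate for sex was higher in males for most of the genes. In the same model 33 of 37 genes were higher in males, with a median log2 difference (male minus female) of 0.157 against 0.003 over all genes, yet 0 passed in limma, against 0.0599% of all genes. Unadjusted p was under 0.05 for 11 of them (29.7%), all higher in males, against 6.45% of all genes. Because the 37 genes varied together from pup to pup, such counts are not independent. Igtp had the smallest p, with a log2 difference of 0.43 ± 0.13 (SE) and an adjusted p of 0.586. In CSD pups its 4 males lay between 10.44 and 10.74 and its 4 females between 9.50 and 10.27, without overlap. Irf7 followed with 0.33 ± 0.12 (adjusted p of 0.681). VD pups had only 2 females, both of mother 5, and the 3 VD pups of mother 6 were all males. Markers of immune cells leaned the same way, with 10 of 10 T cell markers (median log2 difference 0.254), 9 of 9 B cell markers (0.11), 11 of 12 macrophage markers (0.174) and 8 of 9 markers of NK cells and cytotoxic lymphocytes (0.136) higher in males. Unadjusted p was under 0.05 in that direction for 2 macrophage and 2 NK markers and for 0 of the T and B cell markers, and 0 of the 4 lists passed in limma. In the other direction 1 macrophage marker had such a p. Lists outside the immune system leaned towards males too, among them endothelium (6 of 6), smooth muscle (6 of 7), fibroblasts (5 of 6) and housekeeping genes (7 of 10), with 0 genes at such a p. Colon epithelium did not (5 of 12 higher in males). The part of these lists in the result for sex was not tested.

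CSD litters each held 2 males and 2 females, and a comparison of the sexes within CSD pups alone, with mother as a fixed effect, was added after the data had been seen. Here 35 of 37 genes were higher in males, with a median log2 difference of 0.225 against -0.004 over all genes. Again 0 of the 37 passed in limma, where 0.0218% of all genes did, while 21 (56.8%) had an unadjusted p under 0.05, against 5.77% of all genes. Of these 21, 20 were higher in males and Isg20, an RNA exonuclease, was lower. These counts are not independent, since the genes varied together (mean correlation 0.354 over their pairs, against 0.002 over all pairs of genes). A few pups high or low in many of the genes can thus move many of the counts at once. Rtp4 was 0.60 ± 0.14 higher in CSD males, Isg15 0.76 ± 0.23, Ifit1 0.56 ± 0.17 and Usp18 0.43 ± 0.10 (SE). All 4 CSD males were above all 4 CSD females for 6 of the 37 genes (16.2%), against 1.29% of all genes. These were Oas2, Oasl2, Ifit2, Rtp4, Usp18 and Igtp, and for 0 of the 37 were all males below all females, against 2.13% of all genes. The mean log2 intensity of the plasma cell list was 10.01, 10.34, 10.50 and 10.68 in CSD males and 9.47, 9.51, 9.95 and 10.14 in CSD females, so that 3 of 4 males lay above every female. For the B cell list it was 7.362, 8.035, 8.148 and 8.346 in males and 7.544, 7.577, 7.654 and 7.991 in females, again with 3 of 4 males above every female. The lists of dendritic cells, smooth muscle and small intestine epithelium likewise had 3 of 4 males above every female. That of the T cell list ran from 7.495 to 8.406 in males and from 7.63 to 8.14 in females. Their part in the result was not tested.

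The 1 VD litter with both sexes, that of mother 5, held 3 males and 2 females. Here 13 of 37 genes were higher and 24 lower in males, with a median log2 difference of -0.036 against 0.009 over all genes, in a limma fit that was also added after the data had been seen. Of the 37 genes 0 passed (0.049% of all genes did), and 4 (10.8%) had an unadjusted p under 0.05, 1 higher and 3 lower in males, against 6.96% of all genes. Of the 20 genes higher in CSD males at an unadjusted p under 0.05, 12 were lower and 8 higher on average in the males of mother 5. Among the 12, the mean log2 intensity was 10.79 in males and 11.14 in females for Rtp4, 10.01 and 10.43 for Oasl2, 11.43 and 11.53 for Isg15, 7.48 and 7.68 for Ifit1 and 7.33 and 7.36 for Usp18 (n = 3 and 2). The 8 were Irf9, Dhx58, Ifit2, Ifit3, Rsad2, Igtp, Psmb8 and Tap1, with 7.87 and 7.63 for Ifit3 and 10.24 and 10.23 for Igtp. Whether the sex difference itself differed between this litter and the CSD litters was not tested.

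**Figure D5:**
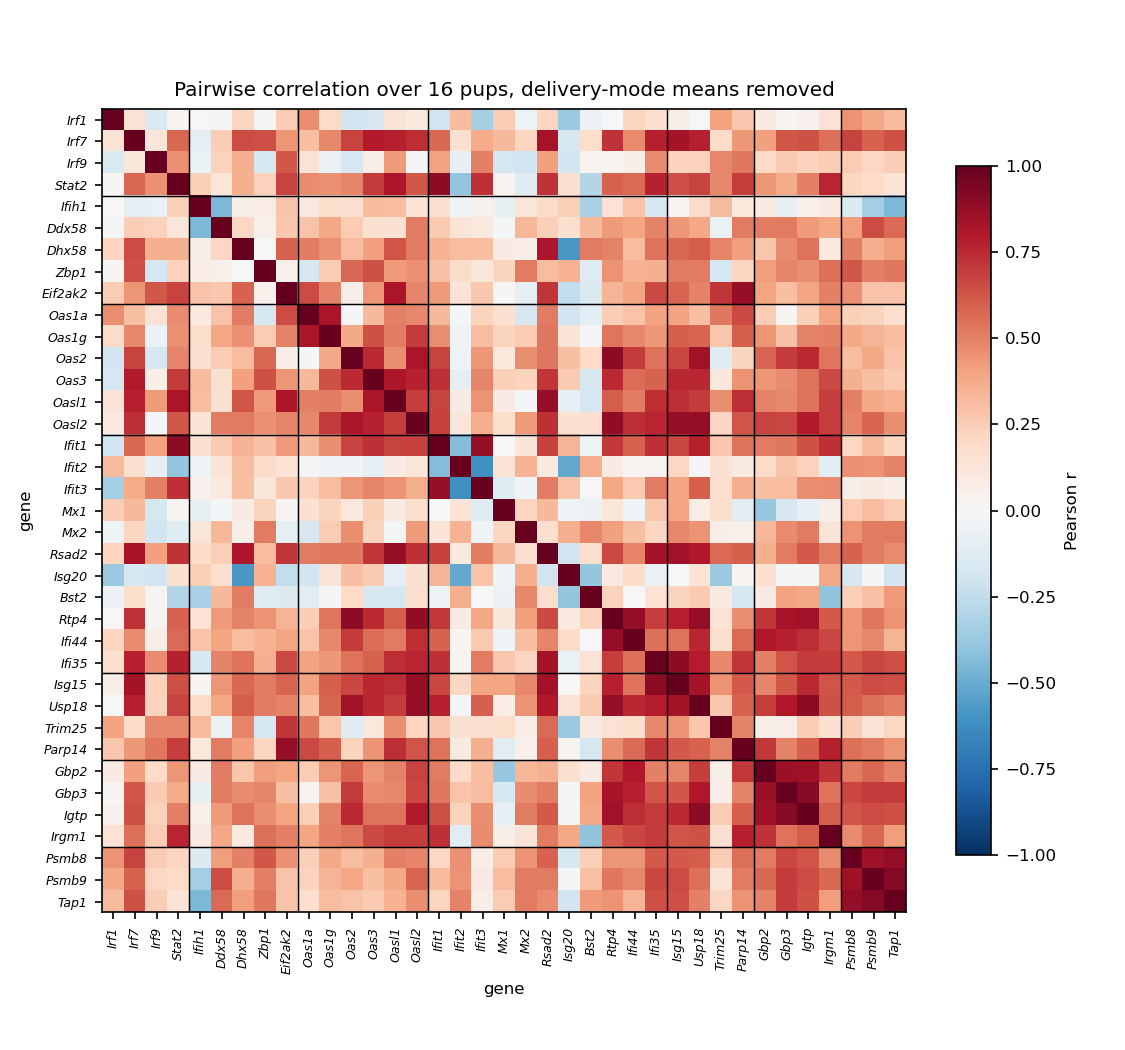
Pearson correlation (colour) of each pair of the 37 genes (both axes, grouped by role) over the 16 pups after the mean of each delivery mode was subtracted. Most pairs are positive, the GTPases and antigen processing genes form the darkest blocks, and Isg20, Ifih1 and Ifit2 have the lowest mean correlation with the other genes (-0.001, 0.046 and 0.074).

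The CSD minus VD difference was more positive in males than in females for 31 of 37 genes, with a median of 0.242 for the delivery by sex interaction against -0.010 over all genes. This does not make it larger in size in males. The mean of Psmb8 was 10.89 in CSD and 11.33 in VD females (n = 4 and 2) but 11.24 and 11.43 in males (n = 4 and 6), so that its difference was smaller in males. Several lists of cell markers leaned the same way in this interaction. More positive in males were 7 of 7 plasma cell markers (median 0.889, 4 with an unadjusted p under 0.05), 9 of 9 B cell markers (0.201), 10 of 12 macrophage markers (0.165), 7 of 7 smooth muscle markers (0.267) and 10 of 12 colon epithelium markers (0.124). T cell markers were split (5 of 10). Other lists did not lean this way, with medians of -0.003 for NK cells and cytotoxic lymphocytes, -0.041 for neutrophils, -0.064 for small intestine epithelium and -0.072 for housekeeping genes. In limma 0 markers of these lists passed. Their part was not tested. In limma 0 of the 37 passed for this interaction, against 0.00272% of all genes, and 4 (Oas1a, Oasl2, Rtp4 and Igtp) had an unadjusted p under 0.05, where 4.72% of all genes did. Oas1a had an interaction of 0.36 ± 0.14 (SE, adjusted p of 0.981) and Oasl2 one of 0.66 ± 0.27 (adjusted p of 0.981). In Oas1a the male means were 14.11 ± 0.19 in CSD and 13.74 ± 0.07 in VD pups (SD, n = 4 and 6) and the female means 13.98 ± 0.08 and 13.96 ± 0.25 (n = 4 and 2). Among males alone 29 of 37 genes were higher in CSD pups, 7 with an unadjusted p under 0.05 (18.9%, against 8.98% of all genes). With males alone 0 of all 36709 genes had an adjusted p under 0.05.

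The 37 genes varied together from pup to pup. After the mean of each delivery mode was subtracted, the correlation over the 16 pups averaged 0.354 over 666 pairs, against 0.002 over all pairs of genes, with 584 pairs positive and 228 above 0.5. The pups share slides and litters, and the value was 0.399 with litter means subtracted, so that these are descriptions without a test. Antigen processing (0.883 over 3 genes) and the GTPases (0.747 over 4) varied most closely within a role, followed by the oligoadenylate synthetases (0.575 over 6) and the Isg15 system with Trim25 and Parp14 (0.541 over 4). Effectors (0.224 over 11), transcription factors (0.194 over 4) and sensors (0.114 over 5) were looser. The closest pairs were Psmb9 with Tap1 (r = 0.92) and Gbp3 with Igtp (r = 0.91). Usp18 had the highest mean correlation with the other 36 genes (0.551), then Isg15 (0.546), Oasl2 (0.533) and Ifi35 (0.522), and Isg20 the lowest (-0.001). Ifit1 and Ifit3 correlated at 0.87, while Ifit2 correlated with Ifit3 at -0.61. With litter means subtracted these became 0.64 and -0.16.

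The shared variation set single pups apart in both delivery modes. The median deviation of the 37 genes from their means was highest in VD pup 6 (0.193), CSD pup 8 (0.179), CSD pup 9 (0.132) and VD pup 7 (0.130), all males. It was lowest in CSD pup 2 (-0.211), a female, then in the VD males 10 (-0.144) and 9 (-0.139). High and low pups thus occurred in both groups. The high VD males were both of mother 6, whereas low VD males occurred in both litters, since VD pup 8 of mother 6 stood at -0.125.

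Among the ligands, receptors and sensors upstream 0 genes passed in limma, and Ifnar2 came closest. Of 21 interferon genes 18 were measured, 4 of them above background on 0 arrays, and 11 of the 18 were higher in CSD pups and 7 were lower. Of these, 0 were called. Ifna11, an interferon alpha, had a log2 fold change of 0.23 (adjusted p of 0.167) and Ifna13 one of 0.18 (adjusted p of 0.243). The only probe of Ifna13 was dim, averaging 6.56 in CSD and 6.39 in VD pups, and was not above background on every array. Of 15 receptors and signalling genes 7 were higher and 8 lower, with 0 called. The lowest p was that of Ifnar2, a chain of the type I receptor, at 9.44 ± 0.13 in CSD and 9.68 ± 0.11 in VD pups (SD, n = 8 each), which is a log2 fold change of -0.24. Its adjusted p of 0.0818 in limma was smaller than that of any of the 37 genes, and 0.0379 without sex in the model, 0.0244 without the litter of mother 6 and 0.0244 to 0.584 over all alternatives. In 6 of 8 CSD pups it was below every VD pup, and in all 8 below the VD median (p = 0.0014 in the exact permutation test). It was followed by Ptpn6, a phosphatase of leukocytes (-0.16, adjusted p of 0.289). Of 15 upstream sensing genes 4 were higher and 11 lower, with 0 called, and Tlr9, the sensor of bacterial DNA, had -0.12 (adjusted p of 0.124) and Tmem173, the adaptor Sting, -0.29 (adjusted p of 0.14). For both, all 8 CSD pups were below the VD median and 5 below every VD pup. Unadjusted p was under 0.05 for 2 ligands (higher), 2 receptor genes and 2 sensing genes (lower), against 14.5% of all genes.

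Of 80 further interferon-stimulated genes 75 were measured, 36 higher and 39 lower in CSD pups. Their median was -0.011, and 0 were called, against 1.25% of all genes. Unadjusted p was under 0.05 for 4 higher and 4 lower (10.7%), a smaller share than the 14.5% of all genes. The smallest was that of Ddx60, a helicase that aids Rig-I signalling, at 8.43 ± 0.22 in CSD and 7.91 ± 0.43 in VD pups (SD, n = 8 each). Its log2 fold change was 0.59 (adjusted p of 0.0656 in limma, 0.0278 without VD pup 7, 0.0486 without VD pup 8 and 0.000688 to 0.695 over all alternatives). Like Ifit3, Ddx60 differed between the VD litters, by 0.72 (mother 6 minus mother 5, adjusted p of 0.0134, and 0.0589 without VD pup 7). For sex, 62 of the 75 were higher in males, with a median of 0.070. Of the 75, 0 were called, against 0.0599% of all genes, and unadjusted p was under 0.05 for 19 higher and 1 lower in males, against 6.45% of all genes.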

How the data were processed

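The 37 genes, their role groups and the lists of pathway genes and cell markers were chosen with earlier results of these data known. Delivery mode, mother, sex and pup number came from the labels, and slides from the array files. For every 1-colour Agilent array the authors deposited Feature Extraction output with a mean intensity and a local background intensity per spot, and a gene matrix in log2 units, background corrected, quantile normalized, filtered on dim probes and averaged by gene with limma 3.38. The matrix held 27036 genes and served as an alternative.

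From the intensities, normexp correction (offset 50) was applied in limma 3.58.1 (R 4.3.3). Control spots and outlier spots (65 to 205 on an array) were dropped, and log2 values of 59305 spots were quantile normalized and averaged by probe. A probe entered the gene's average if it exceeded the 5% quantile on 4 or more arrays (56366 of 56605 did). The filter removed 0 of the 63 probes of the 37 genes, and 0 of their values were missing. Gene names and probe positions (mm9) are those of the array files, and promoter sequences are from RefSeq (GRCm38.p6).

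Delivery mode and sex were fixed effects and mother a random effect (duplicateCorrelation, consensus 0.015) in lmFit and eBayes. The same consensus value was used for every gene. Pups of a litter were thus treated as nearly independent, also for genes whose litters lay apart. Litters were compared with mother and sex as fixed effects. P-values were adjusted over all genes by Benjamini-Hochberg, and an adjusted p under 0.05 was a call. Exact permutation tests were two-sided over all 12870 assignments of 8 pups out of 16, with 0.000155 as the smallest p they can give. The code was tested on simulated data. Correlations are Pearson's. Genes named are the 12 with the smallest p between delivery modes, those called or with the 2 smallest p in the other contrasts and in each pathway list, the 2 with the strongest signal in each role, and the 3 with the widest range; others named in the text were chosen after their values were seen. P-values measure the spread between pups of 2 litters per delivery mode. Plots were drawn with matplotlib 3.10.9. Alternatives were other background corrections, normalizations, dim-probe filters and probe summaries, the deposited matrix, models that lacked mother or sex, litter means, males only, slide as an effect or 1 slide alone, the title number as a block, and leaving out each litter or pup.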

Additional observations from a re-analysis of the deposited data

Results flagged for a closer look

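In 4 of the 74 groups of 8 pups tested (37 genes in 2 delivery modes), 1 pup stood apart from the rest by Dixon's criterion, and chance gives about 1 in 20. CSD pup 2, a female of mother 4, was lowest of the CSD pups for Ifi44 (6.19, the next pup at 6.46) and for Irf9 (10.26, the next at 10.46). VD pup 4, a female of mother 5, was highest of the VD pups for Oas1a (14.14, the next at 13.82). VD pup 7, a male of mother 6, was highest for Oasl1 (11.31, the next at 10.96). Without VD pup 4 the log2 fold change of Oas1a between delivery modes was 0.33, with an adjusted p of 0.0511 in limma, against 0.25 and 0.145 with it and a range of 0.0511 to 0.694 over all alternatives.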

How the results depend on the processing

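Between delivery modes, 0 of the 37 genes were called in 37 of 38 alternatives, and 6 without the litter of mother 6. The median log2 fold change of the 37 genes stayed between 0.005 and 0.117, and 20 to 29 genes were higher. Leaving out 1 pup at a time gave 0 calls each time and a median of 0.03 to 0.095. Over all genes the number of calls ran from 0 (litter means, males only, slide 2 alone and the replicate block) to 2265 (without the litter of mother 6), and from 145 to 617 with 1 pup left out, against 460. Of the genes named, Oas1a, Isg15, Ifit1, Usp18, Psmb8, Oas1g, Oas2, Rtp4, Tap1, Psmb9, Oasl2, Irf7, Eif2ak2, Oasl1 and Trim25 kept their direction in all 38. The direction turned for Ifit2 (0.23), Ifit3 (-0.32), Irf1 (0.12) and Zbp1 (-0.12) without the litter of mother 5, for Zbp1 (-0.053), Ifi35 (-0.004) and Igtp (-0.10) with litter means, for Irf1 (0.001) and Gbp2 (0.015) in males, for Gbp2 on slide 1 (0.002), for Zbp1 (-0.11) and Igtp (-0.11) on slide 2, for Zbp1 without the litter of mother 4 (-0.13), and for Igtp without sex in the model (-0.071) and without VD pup 9, VD pup 10 or CSD pup 7 (-0.02 to 0.095 over the pups left out). The cause was not tested. Of the pathway genes, Ddx60, Ifnar2, Tlr9 and Tmem173 were called without the litter of mother 6, Ifnar2 also without sex in the model, Ddx60 also with the brightest probe per gene.

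In the VD litters 1 of the 37 genes was called, Ifit3, but 0 with the scanner's own corrected intensity under either normalization (log2 differences 1.54 and 1.54, adjusted p 0.0879 and 0.0974, with 0.412% and 0.283% of all genes called) and 2, Ifit1 and Ifit3, with only probes well above background on at least 4 arrays (2.01% of all genes). Leaving out 1 VD pup at a time, which was added after the data had been seen, gave 0 to 2 calls and a median of 0.036 to 0.157, with 0.21% to 0.755% of all genes called against 0.874%. The comparisons of sex, its interaction with delivery mode and the CSD litters gave 0 calls among the 37 genes in all of their 10, 7 and 7 alternatives. For sex, the median log2 difference of the 37 genes was -0.036 in the litter of mother 5 alone, against 0.157, and Irf7 turned there (-0.028).

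Pup numbers 5 to 9 occur in both delivery modes, but deviations of same-numbered pups correlated by -0.05 to 0.21. The numbers were therefore not treated as pairs, although these values cannot exclude a pairing. With the number as a replicate block (mother not in the model), 0 of the 37 genes were called, 5 had an unadjusted p under 0.05 where 9.76% of all genes did, against 9 and 14.5% without the block, the median log2 fold change was 0.07, and Zbp1 turned (-0.045). The scaling of the arrays moved the median of all genes by at most 0.044. Each delivery mode had 2 litters, and the dim probe of Oas3 carries little signal over background.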
